A study of Mus musculus with 27 samples.

Results

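Gene expression was compared between colons of Il10 knockout mice kept in conventional housing and colons of Il10 knockout mice kept specific pathogen free (SPF), both at 7 weeks of age, over all genes of the array. The comparison rests on 6 of the 27 arrays of the study, 3 per group, with 1 array per sample of full-thickness colon. Both groups lack Il10, a cytokine that restrains the response of the gut to its microbes. They differ by housing, and the labels name no other treatment. Conventional wild types of the same age (3 arrays) are given beside them for reference, since the samples used here hold no SPF wild types. Which samples are conventional knockouts was settled by elimination, since their code is not spelled out. The sources used here give no strain, knockout allele or hour of tissue collection, nor whether animals were pooled. The authors selected replicates on the length of the colon and its damage, and the p-values measure only the spread between these samples.

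The circadian clock is a loop of transcription factors that runs in nearly every cell of the colon. ARNTL (BMAL1), paired with CLOCK or NPAS2, activates genes through the E-box. Among the products, PER and CRY proteins block ARNTL, and the nuclear receptors NR1D1 and NR1D2 repress Arntl through ROR elements. The PAR bZIP factors DBP, TEF and HLF activate genes through the D-box, which NFIL3 represses. The level of these transcripts changes with the hour of the day, so that genes activated by ARNTL peak when Arntl itself is low.

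Values are log2 expression as deposited, 1 probe set per gene, and a difference is the mean of conventional minus the mean of SPF knockouts on the log2 scale, ± SE, from 1 limma model of all 27 arrays. Of 18193 genes, 49 (0.269%) were called, with a p adjusted by Benjamini-Hochberg of under 0.05. Of these, 28 were higher (0.154%) and 21 lower (0.115%) in conventional knockouts, and 24 changed at least 2-fold (0.132%), 13 of them higher and 11 lower. For comparison, 968 genes (5.32%) had an unadjusted p under 0.05. In all 49 called genes the 3 arrays of 1 group lay beyond the 3 arrays of the other, as they did in 16.1% of all genes. The count fell to 19, 23 or 25 without conventional replicate 1, 2 or 3, and to 31, 18 or 20 without SPF replicate 1, 2 or 3. With each of the 27 arrays left out in turn, 16 of the 49 genes kept their call every time, 9 of them higher and 7 lower. In bulk tissue, fewer cells of a type and less RNA per cell cannot be told apart.

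**Figure D1:**
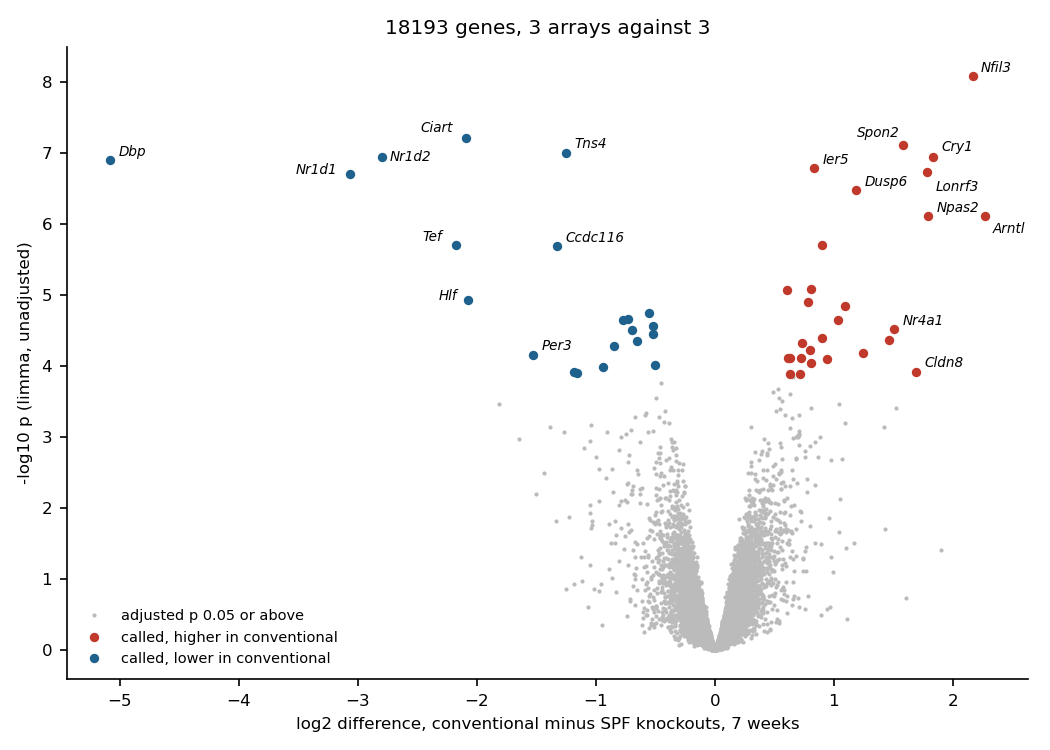
Each point is 1 of 18193 genes at 7 weeks; the x axis is the log2 difference, conventional minus SPF knockouts, and the y axis is -log10 of limma's unadjusted p. The called genes are coloured by direction, and Dbp stands alone at -5.08, with Nr1d1 and Nr1d2 next on the lower side and Arntl and Nfil3 farthest on the higher side.

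The arrays carried the signal of colon. The mucin gene Muc2 lay between 13.80 and 14.10 in conventional and between 14.02 and 14.06 in SPF knockouts, and the smooth muscle myosin gene Myh11 between 11.85 and 12.20 and between 11.93 and 12.06. Il10 itself was read at 4.99 to 5.10 in conventional knockouts, 4.66 to 5.06 in SPF knockouts and 3.72 to 3.83 in wild types, and it did not pass the test between the knockout groups (0.20 ± 0.29, adjusted p = 1.00). Since the allele is not given, this probe set does not check the knockout. Spearman correlations between arrays were 0.990 to 0.993 within the 2 knockout groups and 0.989 to 0.992 between them. The 3' minus 5' signal of actin, a measure of RNA quality, was 0.50 to 0.62 in conventional and 0.45 to 0.53 in SPF knockouts. The same measure for Gapdh was -0.048 to -0.026 in conventional and -0.0045 to 0.011 in SPF knockouts, ranges that did not overlap, and the part of RNA quality in the results was not tested. The deposited values used here carry no detection call. Of the called genes named below, Fosb, Apold1, Slc2a5, Klf15 and Ccdc116 had both group means below the median gene of every array (6.12 at the lowest). In conventional knockouts alone, the mean of Dbp (5.14), Nr1d1 (5.46), Ciart (4.97), Hlf (5.51) and Per3 (5.84) lay below it. In SPF knockouts alone, the mean of Nfil3, Cry1, Npas2 and E2f2 lay below it. Whether these means lay above background, and the part of background in the fold differences, was not tested.

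The largest differences were in clock genes. Of 13 measured genes of the clock output and accessory loop, 7 fell (Dbp, Nr1d1, Nr1d2, Tef, Ciart, Hlf and Usp2) and 1 rose (Nfil3) in conventional relative to SPF knockouts. Their median difference was -0.84, against -0.007 over all genes, and it was -1.46 without the dimmest 40% of genes. Of 11 core clock genes, 3 rose (Arntl, Cry1 and Npas2) and 1 fell (Per3). In both lists these are counts of called genes, against 0.154% called higher and 0.115% called lower over all genes. Both lists were chosen with earlier results of these data known and give no independent support.

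Dbp, a PAR bZIP activator, had the largest difference of all genes. Its value was 5.53, 4.87 and 5.03 in conventional replicates 1 to 3, against 10.16, 10.33 and 10.18 in SPF replicates and 10.06, 10.26 and 10.22 in wild types. The conventional knockouts were low on every array, and SPF knockouts and wild types overlapped. The difference was -5.08 ± 0.67, a 33.8-fold lower level (adjusted p = 0.000327), and both probe sets of the gene were called. The related factor Tef read 7.28, 7.14 and 6.72 in conventional and 9.05, 9.37 and 9.25 in SPF knockouts, with a difference of -2.17 ± 0.34 (adjusted p = 0.00236). Hlf, the other PAR bZIP gene, read 5.83, 5.37 and 5.33 against 7.59, 7.66 and 7.51 (-2.08 ± 0.37, adjusted p = 0.0113). Hlf lost its call without conventional replicate 2 or 3 or SPF replicate 2 or 3, where the adjusted p reached 0.0798.

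The nuclear receptor genes that repress Arntl were also low. Nr1d1 read 5.49, 5.84 and 5.05 in conventional, 8.48, 8.54 and 8.55 in SPF knockouts and 8.73, 8.53 and 8.56 in wild types. It was 8.38-fold lower in conventional than in SPF knockouts (-3.07 ± 0.41, adjusted p = 0.000364). Nr1d2 read 8.11, 8.23 and 7.89 in conventional and 10.79, 10.96 and 10.89 in SPF knockouts, a 6.97-fold difference (-2.80 ± 0.37, adjusted p = 0.000327). For both genes the knockout groups stood well apart, and the SPF arrays lay close to each other.

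Among the repressors of CLOCK and ARNTL, some were low and some high. Ciart read 4.86, 4.93 and 5.11 in conventional and 6.85, 7.19 and 7.13 in SPF knockouts (-2.09 ± 0.26, adjusted p = 0.000327). Per3 read 6.24, 5.91 and 5.36 against 7.25, 7.33 and 7.51 (-1.53 ± 0.31, adjusted p = 0.0339). Cipc, whose product binds CLOCK, read 9.52, 9.27 and 9.25 against 10.11, 10.45 and 10.30 (-0.94 ± 0.20, adjusted p = 0.0433). Cry1 went the other way, at 7.94, 7.37 and 7.79 in conventional against 5.84, 5.92 and 5.85 in SPF knockouts (1.83 ± 0.24, adjusted p = 0.000327). Per3 and Cipc lost their calls without any 1 of the 6 arrays compared, with adjusted p-values up to 0.254 for Per3 and 0.326 for Cipc. Per1 read 5.75 to 5.93 against 6.67 to 7.01 and did not pass the test (-1.05 ± 0.28, adjusted p = 0.209), and Per2 and Cry2 overlapped between the groups (-0.15 ± 0.31 and -0.21 ± 0.18).

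The activators Arntl and Npas2 were higher in conventional knockouts. Arntl read 8.53, 8.60 and 8.47 in conventional, 6.44, 6.14 and 6.22 in SPF knockouts and 6.74, 6.30 and 6.05 in wild types. The difference was 2.27 ± 0.33, or 4.81-fold (adjusted p = 0.00110), and both of its probe sets were called. Npas2 read 7.47, 7.38 and 7.15 against 5.50, 5.86 and 5.26 (1.79 ± 0.26, adjusted p = 0.00110). Clock, their partner and relative, read 8.91 to 9.23 against 8.64 to 8.76, a small difference that did not pass the test (0.32 ± 0.13, adjusted p = 0.827). Nfil3, the repressor at the D-box, read 7.04, 7.40 and 7.22 against 5.17, 4.81 and 5.18 and had the smallest p of all genes (2.17 ± 0.24, adjusted p = 0.000150). Thus Arntl, Npas2 and Nfil3 were high where the PAR bZIP genes were low. Their arrays did not overlap, which held for all 49 called genes and for 16.1% of all genes.

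**Figure D2:**
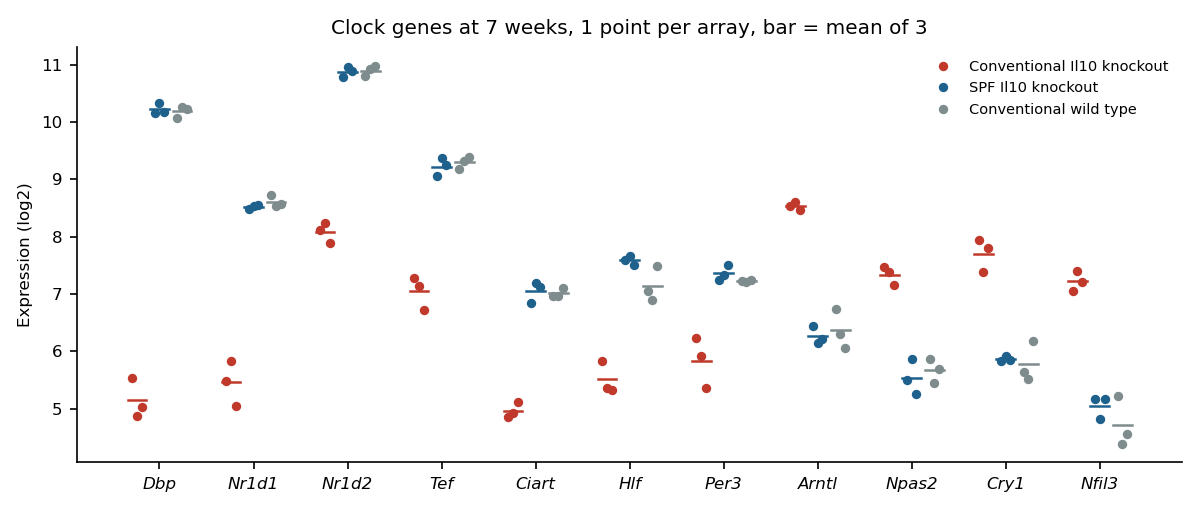
Log2 expression of 11 clock genes (x axis) on each array at 7 weeks, with a bar at the mean of 3; red is conventional knockouts, blue SPF knockouts and grey conventional wild types. The 7 genes on the left are lower and the 4 on the right higher in conventional knockouts, while SPF knockouts and wild types lie close together.

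Beside the wild types, the conventional knockouts were the group that stood apart in these genes. The difference of SPF knockouts from wild types was 0.04 ± 0.67 for Dbp, -0.09 ± 0.41 for Nr1d1, -0.10 ± 0.33 for Arntl and 0.09 ± 0.24 for Cry1, each with an adjusted p of 1.00. The difference of conventional knockouts from wild types was -5.04 ± 0.67 for Dbp and 2.17 ± 0.33 for Arntl. These comparisons share arrays with each other and with the one above, and SPF knockouts differ from the wild types in both genotype and housing.

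Promoters of some clock genes are shown, chosen because elements that the clock factors bind could be read in them. The promoter of Dbp, for example, held no match of the E-box, D-box or ROR element and is not shown. The sequences are RefSeq promoters of GRCm38.p6, 5' to 3' on the strand of the gene, cut to the 250 bases before the gene start (29 bases for Arntl, where the match lies 30 bases past that start, and where 1 of 2 RefSeq promoters holds it), with the matched letters in capitals. For Ciart (chr3:95882229-95882478, minus strand) and Cry1 (chr10:85185055-85185304, minus strand) the capitals mark the E-box CACGTG, with 3 matches in Ciart and 1 in Cry1.
Ciart: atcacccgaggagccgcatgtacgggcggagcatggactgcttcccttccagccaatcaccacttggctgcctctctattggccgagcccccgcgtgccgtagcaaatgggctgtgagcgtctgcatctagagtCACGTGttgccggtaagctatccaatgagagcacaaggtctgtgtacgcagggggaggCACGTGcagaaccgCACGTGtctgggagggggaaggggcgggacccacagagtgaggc
Cry1: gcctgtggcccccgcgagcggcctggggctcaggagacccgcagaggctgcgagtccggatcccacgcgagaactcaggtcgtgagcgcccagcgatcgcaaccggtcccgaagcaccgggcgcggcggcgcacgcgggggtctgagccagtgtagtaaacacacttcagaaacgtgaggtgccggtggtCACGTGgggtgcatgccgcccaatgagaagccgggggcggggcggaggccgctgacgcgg

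For Arntl (chr7:113207530-113207558, plus strand) and Nfil3 (chr13:52981040-52981289, minus strand) the capitals mark the core of the ROR element, TAGGTCA, which lies on the opposite strand in Nfil3.
Arntl: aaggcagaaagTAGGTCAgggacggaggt
Nfil3: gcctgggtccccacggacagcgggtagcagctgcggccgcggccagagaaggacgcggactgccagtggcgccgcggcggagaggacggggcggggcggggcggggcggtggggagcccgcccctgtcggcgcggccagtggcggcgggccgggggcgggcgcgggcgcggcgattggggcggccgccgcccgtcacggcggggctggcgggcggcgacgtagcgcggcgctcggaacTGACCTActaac

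For Per3 (chr4:151044666-151044915, minus strand) the capitals mark 2 matches of the D-box TTATGTAA.
Per3: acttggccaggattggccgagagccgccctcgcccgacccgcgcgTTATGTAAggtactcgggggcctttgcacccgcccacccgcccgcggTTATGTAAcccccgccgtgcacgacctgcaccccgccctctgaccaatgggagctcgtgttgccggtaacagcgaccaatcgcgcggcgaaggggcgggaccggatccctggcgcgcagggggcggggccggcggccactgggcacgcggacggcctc

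The motifs were searched on both strands from 250 bases before to 50 bases after the gene start, and matches of different motifs were counted separately. Promoters were matched for 26 of the 31 called genes that the naming rule gave. The E-box was in 7 of the 26 (26.9%; Cry1, Lonrf3, Dusp1, Cipc, Klf15, Ciart and Tef), against 8.09% of the 27025 genes with a promoter. Among all called genes with a promoter, named or not, it was in 9 of 40. The D-box, TTATGTAA or TTACGTAA, was in 1 of 26 (3.85%, Per3) against 1.23%. The ROR core, TAGGTCA or TGGGTCA, which was added after the values were seen, was in 3 of 26 (11.5%; Arntl, Nfil3 and Ccdc116) against 7.35%. The gamma-activated site TTCNNNGAA was in 2 of 26 (7.69%, Apold1 and Dbp) against 9.55%, and the interferon-stimulated response element (ISRE) in 0 of 26 against 3.99%. A match is a description of letters in this window and not of binding.

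The 7-week difference in clock genes was not the same at 9 weeks. The difference between conventional and SPF knockouts changed from 7 to 9 weeks in 17 genes (limma's interaction test, adjusted p under 0.05; 0.0934% of genes, with 1319 or 7.25% at an unadjusted p under 0.05). Of these 17 genes, 15 were among the 49, and 9 of the 15 were genes of the core clock and clock output lists. The test of change uses the same 7-week difference that chose the 49 genes, so part of this overlap is fixed by that choice. At 9 weeks the groups themselves had 0 called genes by limma, with 1468 (8.07%) at an unadjusted p under 0.05. Dbp was 3.90 to 5.02 in SPF knockouts at 9 weeks and up to 7.05 in conventional ones, where the lowest array fell inside the SPF range, and the difference was 1.37 (adjusted p = 0.624). Arntl was 7.09 to 7.56 against 7.81 to 8.28, a difference of -0.71. The change in difference was 6.45 ± 0.94 for Dbp (adjusted p = 0.00410) and -2.97 ± 0.47 for Arntl (adjusted p = 0.00508).

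The level of Dbp in each group by age shows where this change lay. Mean Dbp was 10.22 in SPF knockouts at 7 weeks, 4.57 at 9 weeks and 4.25 at 12 weeks, against 5.14, 5.94 and 5.88 in conventional knockouts. In wild types Dbp was 10.06 to 10.26 at 7 weeks and 6.60 to 6.97 at 9 weeks, and at 12 weeks it spread from 5.93 to 9.94 within the group. Among wild types, of 1 genotype and 1 housing, Dbp differed between ages and, at 12 weeks, between arrays of the same age. The hour of collection is not given, and its part in the 7-week difference was not tested.

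**Figure D3:**
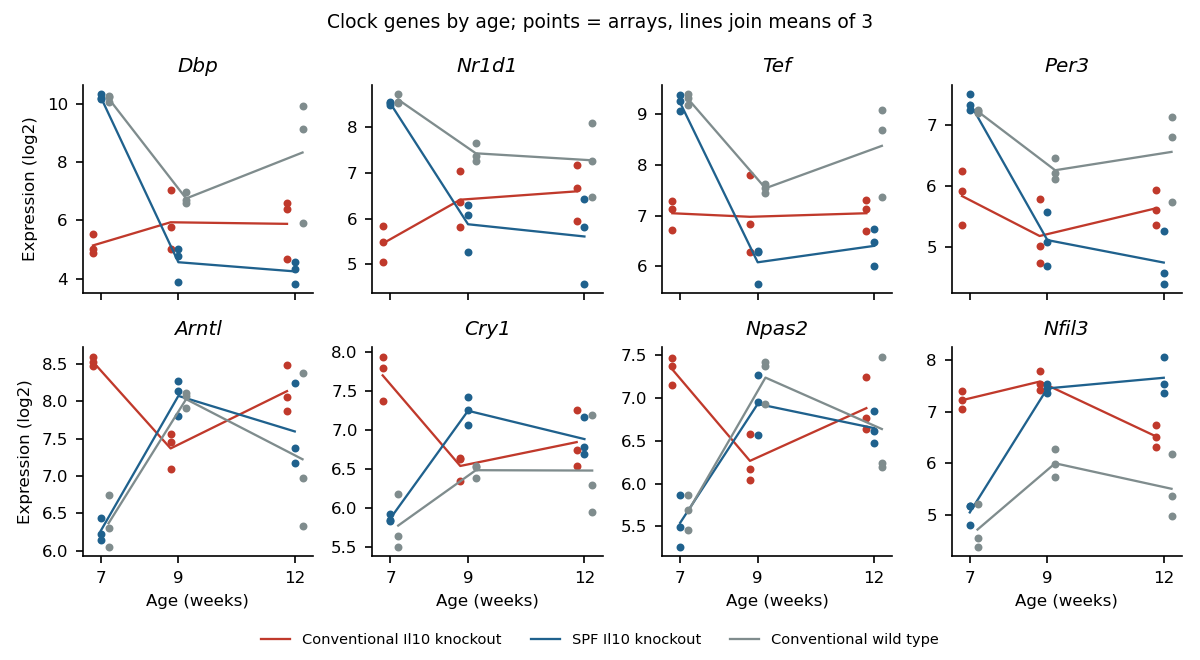
Log2 expression of 8 clock genes against age in weeks; points are arrays and lines join the means of 3 for conventional knockouts (red), SPF knockouts (blue) and conventional wild types (grey), drawn slightly apart. At 7 weeks SPF knockouts and wild types sit together and away from conventional knockouts, and in Dbp the SPF mean drops from 10.22 to 4.57 by 9 weeks.

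At 12 weeks the comparison of the knockout groups was of another size, with 4480 genes called (24.6%). Of the 49 genes called at 7 weeks, 9 were called at 12 weeks, a smaller share than the 24.6% of all genes. All 9 had the opposite direction at 12 weeks (Nfil3, Hbegf, E2f2, Dtl, Cipc, 0610005C13Rik, Tns4, Per3 and Hlf), and the others did not pass the test there. Nfil3, for example, had a difference of -1.13 at 12 weeks (adjusted p = 0.00333) and of 2.17 at 7 weeks. The difference at 12 weeks was not the same as at 7 weeks in 1701 genes (9.35%), 41 of the 49 among them. This overlap, too, is in part fixed by the choice of the 49 genes on their 7-week difference. The count of 1701 genes ranged from 177 without SPF 12-week replicate 3 to 4521 without SPF 12-week replicate 2.

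Immediate early genes, which are transcribed within minutes of a stimulus to the cell, were the other list with several called members. Of 30 measured, 5 rose in conventional relative to SPF knockouts (Dusp6, Fosb, Fos, Dusp1 and Nr4a1) and 0 fell, against 0.154% and 0.115% of all genes. At an unadjusted p under 0.05, 14 were higher, against 2.84% of all genes, and the median difference was 0.31. The mean of the list per array was 8.15, 7.94 and 7.84 in conventional knockouts, 7.50, 7.49 and 7.51 in SPF knockouts and 7.45, 7.54 and 7.48 in wild types. Conventional replicate 1 was the highest, and without it the median was 0.22.

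Fos, a subunit of the AP-1 transcription factor, read 11.76, 10.93 and 11.34 in conventional and 10.07, 10.24 and 10.44 in SPF knockouts (1.09 ± 0.20, adjusted p = 0.0124). Fosb, a dim relative, read 3.99, 3.70 and 3.73 against 3.09, 2.93 and 2.96 (0.81 ± 0.14, adjusted p = 0.00865). Nr4a1, an orphan nuclear receptor gene, read 8.62, 8.81 and 7.95 against 7.21, 6.93 and 6.71 (1.51 ± 0.29, adjusted p = 0.0201). The groups did not overlap in any of these genes, as in all 49 called genes, and conventional knockouts varied more than SPF knockouts in Fos. With 1 array left out the adjusted p reached 0.131 for Fos (lost without conventional replicate 1 or 3 or SPF replicate 1 or 2), 0.0941 for Fosb (conventional replicate 1, SPF replicate 2 or 3) and 0.161 for Nr4a1 (conventional replicate 1 or 2, SPF replicate 2 or 3).

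The list also holds Dusp6 and Dusp1, which encode phosphatases that switch off MAP kinases. Dusp6, which acts on ERK, read 9.20, 9.38 and 9.53 in conventional and 8.11, 8.25 and 8.19 in SPF knockouts (1.19 ± 0.17, adjusted p = 0.000557), and it was called with every array left out. Dusp1 read 9.98, 9.26 and 8.95 against 8.47, 8.33 and 8.28 (1.04 ± 0.19, adjusted p = 0.0165), and without conventional replicate 1 or SPF replicate 2 or 3 its call was lost (adjusted p up to 0.131). Egr1 and Ccn1, a zinc finger factor and a matrix protein, had larger differences that did not pass the test, 1.42 ± 0.36 (adjusted p = 0.170) and 1.52 ± 0.37 (adjusted p = 0.116). Ccn1 read 9.01, 7.99 and 7.23 in conventional knockouts, a wide spread, against 6.45 to 6.76 in SPF knockouts.

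Among 16 ligands, receptors and feedback genes of the EGF receptor, 2 rose (Hbegf and Dusp6) and 0 fell, against 0.154% and 0.115% of all genes. At an unadjusted p under 0.05, 7 were higher, against 2.84% of all genes. Hbegf, a ligand of the receptor, read 8.54, 8.10 and 8.08 in conventional, 6.65, 6.68 and 7.01 in SPF knockouts and 6.07, 6.29 and 6.53 in wild types (1.46 ± 0.29, adjusted p = 0.0254). Its call was lost without any 1 of the 6 arrays compared (adjusted p up to 0.211). The ligand gene Ereg read 6.67 to 7.12 against 5.67 to 6.02 and the receptor gene Egfr 7.11 to 7.49 against 6.62 to 6.74, and neither passed the test (1.06 ± 0.36, adjusted p = 0.543, and 0.55 ± 0.15, adjusted p = 0.211). The median difference of the list was 0.16, and 0.24 without the dimmest 40% of genes.

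Type I interferon response genes had 0 called members of 26, but most lay lower in conventional than in SPF knockouts. At an unadjusted p under 0.05, 17 were lower and 0 higher, against 2.48% and 2.84% of all genes, and 24 of 26 had a negative difference, with a median of -0.67. The list mean per array was 7.06, 7.09 and 7.23 in conventional knockouts and 7.77, 8.20 and 7.34 in SPF knockouts. In wild types it was 6.82, 6.72 and 7.44. SPF replicate 2 was the highest of the 9 arrays, SPF replicate 3 was below wild-type replicate 3, and without SPF replicate 2 the median was -0.42. The median difference from wild types was 0.10 for conventional and 0.78 for SPF knockouts.

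Oasl2, a member of the antiviral oligoadenylate synthetase family, read 7.86, 7.91 and 8.46 in conventional, 9.48, 10.07 and 8.83 in SPF knockouts and 7.50, 7.47 and 9.06 in wild types. Its difference of -1.38 ± 0.35 had an adjusted p of 0.170. Oas3, of the same family, read 4.99, 5.55 and 5.61 against 6.49, 7.46 and 6.01 (-1.27 ± 0.33, adjusted p = 0.183). Zbp1, a sensor of nucleic acids, was even within the SPF group at 7.84, 7.87 and 8.01, against 6.84, 6.82 and 7.63 in conventional knockouts (-0.81 ± 0.22, adjusted p = 0.242). Zbp1 was 1.31 ± 0.22 higher in SPF knockouts than in wild types (adjusted p = 0.0128). In the 30 measured genes of the interferon gamma and Th1 list, 0 were called, 1 was lower and 0 higher at an unadjusted p under 0.05, against 2.48% and 2.84% of all genes. The median was -0.02, and it ran from -0.19 without conventional replicate 3 to 0.07 without conventional replicate 1.

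**Figure D4:**
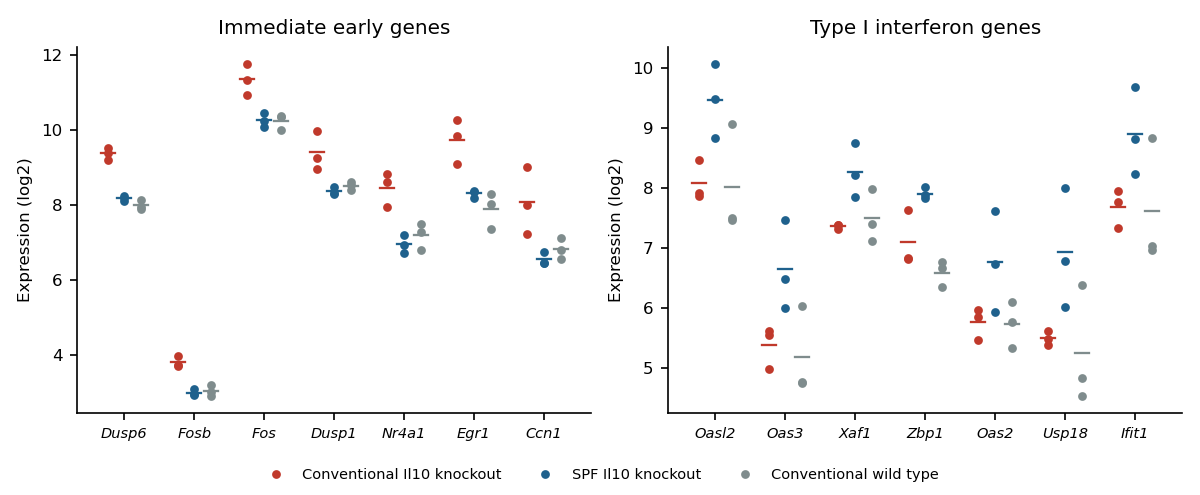
Log2 expression of 7 immediate early genes (left, the 5 called ones first) and 7 type I interferon genes (right, none called) on each array at 7 weeks, with bars at means of 3 and colours for conventional knockouts (red), SPF knockouts (blue) and wild types (grey). The early genes are higher in conventional knockouts; the interferon genes spread widely within SPF knockouts, with Oasl2 from 8.83 to 10.07.

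Other called genes with at least a 2-fold rise had varied roles. Lonrf3, a RING finger gene, read 8.23, 7.87 and 7.75 in conventional and 6.26, 6.07 and 6.17 in SPF knockouts (1.78 ± 0.24, adjusted p = 0.000364). Spon2, which encodes a secreted matrix protein, read 7.94, 7.91 and 7.83 against 6.48, 6.27 and 6.20 (1.58 ± 0.20, adjusted p = 0.000327). Cldn8, a claudin of tight junctions, read 11.04, 10.98 and 10.33 against 9.11, 9.01 and 9.14 (1.69 ± 0.36, adjusted p = 0.0482). It was the single called gene of 23 in the junction and barrier list, against 0.154% of all genes called higher. Its call was lost without any 1 of the 6 arrays (adjusted p up to 0.319). E2f2, a transcription factor of the cell cycle, read 7.07, 7.11 and 7.47 against 6.02, 5.70 and 6.20 (1.24 ± 0.25, adjusted p = 0.0329), and was lost in the same way (up to 0.274).

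Below 2-fold, Klf10 and Apold1, an early response gene of endothelium, were 0.94 ± 0.20 and 0.90 ± 0.18 higher. Both lost their calls in several of the fits with 1 array left out, without conventional replicate 1 or SPF replicate 1 or 2 in either case (adjusted p up to 0.333 and 0.263). Outside the naming rule, and chosen after their values were seen, Trib1, a pseudokinase gene, and Ier5, an early response gene, were 0.90 ± 0.14 and 0.83 ± 0.11 higher and kept their calls with every array left out. Also chosen in that way, the replication genes Dtl and Pola1, which encodes the catalytic subunit of DNA polymerase alpha, were 0.80 ± 0.17 and 0.72 ± 0.15 higher (adjusted p = 0.0396 and 0.0353). Pola1 had 2 probe sets, and only 1 of them pointed this way. Of the 6 fits without 1 of the arrays compared, Dtl kept its call in 1 and Pola1 in 0. In the 29 genes of the cell cycle and DNA replication list, 0 were called, 8 were higher and 0 were lower with an unadjusted p under 0.05 (2.84% and 2.48% of all genes), and the median was 0.31. Pcna, the replication clamp, read 11.17 to 11.29 in conventional and 10.68 to 11.01 in SPF knockouts (0.45 ± 0.15, adjusted p = 0.467).

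Genes lower in conventional knockouts outside the clock lists included Tns4, Slc2a5 and Anks4b. Tns4, an adaptor at focal adhesions, read 8.99, 9.17 and 8.91 in conventional, 9.97, 10.42 and 10.43 in SPF knockouts and 10.65, 10.47 and 10.32 in wild types (-1.25 ± 0.16, adjusted p = 0.000327). Both of its probe sets were called. Slc2a5, the fructose transporter gene, read 4.73, 4.55 and 4.95 against 5.22, 5.67 and 5.66 (-0.77 ± 0.14, adjusted p = 0.0165). Anks4b, a scaffold of brush border microvilli, read 8.65, 8.34 and 8.46 against 9.09, 9.23 and 9.32 (-0.73 ± 0.14, adjusted p = 0.0165). Slc2a5 lost its call without conventional replicate 1 or 2 or SPF replicate 2 or 3 (adjusted p up to 0.180), and Anks4b without conventional replicate 2 or 3 or the same SPF replicates (up to 0.131). The 30 genes of the colonocyte transport list had 0 called members and a median of -0.11, with 3 lower and 0 higher by the unadjusted p (2.48% and 2.84% of all genes). Without SPF replicate 1 that median was -0.22.

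Klf15, a zinc finger factor of nutrient metabolism, read 4.35, 4.37 and 4.60 in conventional and 5.82, 5.66 and 5.31 in SPF knockouts (-1.16 ± 0.25, adjusted p = 0.0482). Usp2, a ubiquitin protease of the clock output list, read 7.11 to 7.15 against 7.92 to 8.02 (-0.84 ± 0.17, adjusted p = 0.0280). Ccdc116 read 4.49, 4.39 and 4.38 against 5.88, 5.69 and 5.68 (-1.33 ± 0.21, adjusted p = 0.00236), and the RIKEN transcript 0610005C13Rik 6.83, 6.92 and 6.80 against 7.84, 8.23 and 8.03 (-1.18 ± 0.25, adjusted p = 0.0482). The groups were apart in all 4 genes, as in all 49 called genes. Ccdc116 was called with every array left out, while the other 3 lost their calls without any 1 of the 6 arrays compared (adjusted p up to 0.292 for Klf15, 0.183 for Usp2 and 0.346 for 0610005C13Rik). The 21 glucocorticoid responsive genes had 0 called members, 1 higher and 5 lower by the unadjusted p (2.84% and 2.48% of all genes), and a median of -0.14. That median ran from -0.22 without SPF replicate 1 to -0.02 without conventional replicate 3.

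In a fit of all 45037 probe sets other than controls, 74 were called (0.164%), and 5 of these were among 10092 (0.0495%) with no gene symbol or several, which the gene tests leave out. The remaining lists held no called gene, which was so for 41 of the 46. In the 22 lists of cell type markers, 0 of 286 measured genes were called by limma and 11 had an unadjusted p under 0.05, against 5.32% of all genes. Their medians ran from -0.20 (B cells) to 0.23 (plasma cells). The median was 0.18 for macrophages and monocytes, -0.04 for neutrophils, -0.09 for T cells and 0.04 for goblet cells. Single arrays moved these medians, and in 12 of the 22 lists the sign turned without 1 of the 6 arrays. Without SPF replicate 1 the median was 0.11 for B cells, 0.51 for plasma cells and 0.37 for macrophages, and without SPF replicate 2 it was -0.41, 0.03 and 0.03. The neutrophil median stayed between -0.07 and 0.001, and that of T cells between -0.17 and -0.02. At 9 weeks the medians for macrophages and neutrophils were 0.98 and 0.93, and at 12 weeks -1.20 and -1.79. Of the lists of inflammation, the cytokines and chemokines had a median of -0.06, the epithelial antimicrobial genes -0.03 and the MHC class II genes -0.05 at 7 weeks. With 1 array left out these ran from -0.11 to -0.02, from -0.06 to 0.005 and from -0.30 (without SPF replicate 2) to 0.16 (without SPF replicate 1). The 17 genes of NF-kB feedback, which restrain inflammatory signalling, had a median of 0.18, with 13 above 0, against 47.9% of all genes. By the unadjusted p, 4 of these genes were higher and 0 lower, against 2.84% and 2.48% of all genes. Their median was 0.09 without SPF replicate 2 and 0.12 without conventional replicate 1. The 15 heat shock and chaperone genes had a median of 0.18, and 4 were higher by the unadjusted p, against 2.84% of all genes. Without conventional replicate 3 that median was 0.07. These lists thus held no change past the test at 7 weeks between knockouts of different housing, and the number of arrays limits what could be detected.

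**Figure D5:**
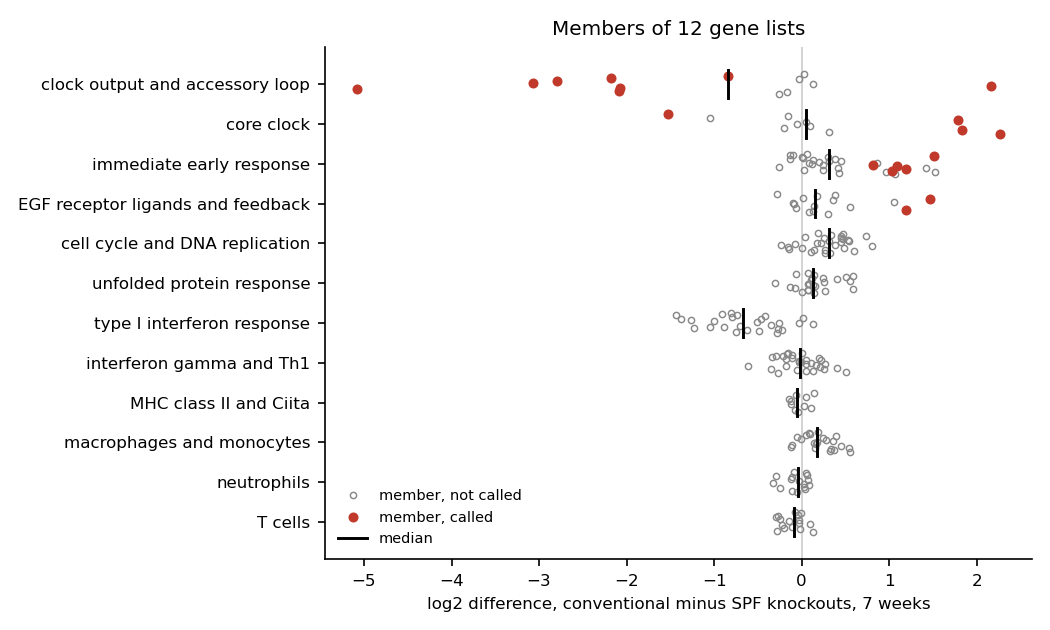
Log2 difference at 7 weeks, conventional minus SPF knockouts (x axis), of each measured member of 12 of the 46 lists (rows), with called members filled in red and a black line at the list median. The called members lie in the clock, immediate early and EGF receptor rows. Type I interferon genes lie mostly below 0, with a median of -0.67. The medians of the immune cell rows are 0.18 for macrophages and monocytes, -0.04 for neutrophils and -0.09 for T cells.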

How the data were processed

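RNA of full-thickness mouse colon was hybridized to Affymetrix arrays, 1 per sample. Per the series' design text the array was of the rat, whereas its probe sets belong to a mouse design. The values are log2 expression, normalized by the authors with affyPLM per the series' design text, and were used as deposited (2.10 to 14.25, array medians 4.92 to 4.99); arrays have no count-like depth. The gene tests leave out, of 45101 probe sets, 64 controls, 932 with several gene symbols and 9160 without one. Each of the 18193 genes took the probe set brightest on average over 27 arrays.

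limma 3.58.1 (R 4.3.3) fitted 9 group means with 18 residual degrees of freedom; eBayes tests were two-sided, adjusted over all genes. The fit was tested on simulated data. The naming rule took the 15 largest rises and 15 largest falls among called genes whose groups did not overlap, up to 4 called members per list, and Il10. Members and the 46 lists (850 of 920 entries measured) were chosen with earlier results of these data known. Alternatives were a replicate block, repeated quantile normalization, median centring, leaving out the dimmest 40% of genes, averaging the probe sets of a gene, all probe sets, an intensity trend, array weights, only the arrays compared, and leaving out each array. Promoters came from RefSeq (GRCm38.p6). Python 3.11.15, pandas 2.3.3 and matplotlib 3.10.9 made the tables and figures.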

Additional observations from a re-analysis of the deposited data

Results flagged for a closer look

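The difference between conventional and SPF knockouts was tested for a change between ages, and limma's test of that change called 17 genes from 7 to 9 weeks. A change below 0 means that the gene was relatively lower in conventional knockouts at 9 than at 7 weeks. Among genes higher at 7 weeks it was -2.97 for Arntl, -2.65 for Cldn8, -2.54 for Cry1, -2.46 for Npas2, -2.04 for Nfil3, -2.03 for Lonrf3, -1.79 for Spon2, -1.50 for Dusp6 and -1.13 for Trib1. Among genes lower at 7 weeks it was 6.45 for Dbp, 3.60 for Nr1d1, 3.47 for Nr1d2, 3.07 for Tef, 2.75 for Ciart and 1.30 for Tns4. Since genes called at 7 weeks were chosen for a large 7-week difference, part of each change is fixed by that choice. The other 2 genes, Cd244a, a receptor of lymphocytes, and Trafd1, an interferon-induced gene, were not called at 7 weeks. Trafd1 had a difference of -0.46 ± 0.13 at 7 weeks and 0.55 ± 0.13 at 9 weeks, and Cd244a of -0.37 ± 0.11 and 0.45 ± 0.11. Neither passed limma's test at 9 weeks (adjusted p = 0.169 and 0.170). Trafd1 had 2 probe sets, and only 1 of them had this direction at 7 weeks. Cd244a was dim, with group means of 3.39 to 3.93, and whether it lay above background was not tested. From 7 to 12 weeks the difference changed in 1701 genes.

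Outside the gene tests, 5 of the 10092 probe sets with no gene symbol or several were called at 7 weeks in a fit of all probe sets (0.0495%), and all 5 have no symbol in the tables used here. Probe set 1438862_at had the smallest p of the array. It read 7.88, 8.19 and 7.64 in conventional knockouts, 4.28, 4.73 and 4.62 in SPF knockouts and 5.34, 5.47 and 5.87 in wild types, a difference of 3.36 ± 0.28 (adjusted p = 9.96e-07). At 9 weeks its group means were 6.82 and 7.29. Probe set 1447408_at was low in SPF knockouts alone, at 6.43, 6.30 and 6.59, against 7.38, 7.52 and 7.32 in conventional knockouts and 7.21, 7.61 and 7.67 in wild types (0.97 ± 0.13). The other three had differences of 1.15 ± 0.15 (1459464_at), 1.15 ± 0.24 (1446692_at) and -0.77 ± 0.15 (1417783_at).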

How the results depend on the processing

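No gene named by the rule changed direction under an alternative that gave it a value. Of these 32, 6 (Apold1, Ccdc116, Fosb, Il10, Klf15 and Slc2a5) have no value without the dimmest 40% of genes. The count of called genes, 49, became 253 with array weights, 81 with only the arrays compared and 74 over all probe sets, and 18 to 64 with 1 array left out. The count changed at least 2-fold, 24, became 43 with array weights, 38 over all probe sets and 14 to 29 with 1 array left out. The change from 7 to 9 weeks, 17 genes, became 1456 with array weights, 31 over all probe sets and 12 to 56 with 1 array left out. The change from 7 to 12 weeks, 1701 genes, became 5685 with array weights, 538 with only the arrays compared and 177 to 4521 with 1 array left out. The cause of these shifts was not tested, beyond the fewer samples of some fits. Array weights lower the influence of arrays that stand apart within their group. Of the 49 genes, 49 were called with array weights and 37 with only the arrays compared. Of the 27 fits without 1 array, Cipc was called in 10, Cldn8 in 9, Klf15 and 0610005C13Rik in 7 each and Dtl in 11. With only the arrays compared, Apold1, Dusp1, Fos, Klf10 and Slc2a5 lost their calls, and with quantile normalization again Cipc, Cldn8, Klf10 and Klf15 did. In the fit of all probe sets 4 of the 32 named genes lost their calls, Cldn8 among them.

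Whether the replicate numbers pair the samples could not be settled, since deviations from a mean of 3 arrays leave few free values. Same-numbered deviations of the knockout groups correlated at -0.007, 0.063 and 0.176. Conventional replicates 2 and 3 correlated best with their own number, and replicate 1 with SPF replicate 2 (0.147). With the replicate number as a block, 33 genes were called at 7 weeks, 32 of them among the 49, 20 changed at least 2-fold, 14 changed from 7 to 9 weeks and 896 from 7 to 12 weeks. In the block fit 0610005C13Rik, Cipc, Cldn8, E2f2, Klf15 and Slc2a5 lost their calls.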

Other observations

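Where a gene had several probe sets, the brightest one did not always carry the difference, and 11 genes were called at 7 weeks only through a dimmer probe set. Nr4a2, an early response gene related to Nr4a1, was 1.17 ± 0.17 (adjusted p = 0.00102) and 1.29 ± 0.22 (adjusted p = 0.00836) higher in conventional knockouts on its dimmer probe sets, and -0.10 on its brightest. Klf9, a glucocorticoid responsive factor, was -1.07 ± 0.21 on a dimmer probe set (adjusted p = 0.0324) and -0.46 on its brightest. Ddx60, an interferon-induced helicase gene, was -1.79 ± 0.34 on a dimmer probe set (adjusted p = 0.0261) and -1.82 on its brightest, where the adjusted p was 0.107. These genes were chosen after their values were seen. The parts of the transcripts that the probe sets read were not examined. Of the 49 called genes, 27 had more than 1 probe set, and in 23 of these all probe sets pointed the same way. In only 10 of the 27 was more than 1 probe set called.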
